A study of Homo sapiens with 2 samples.

Results

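The 10 genes described here encode surface proteins, and 1 secreted lectin, through which tumour cells restrain T cells, natural killer cells or macrophages. They were taken by name from the 19866 protein-coding genes of NCBI RefSeq (GRCh38) that could be placed on a chromosome. The rule uses no measured value, but earlier results of these data were known when the genes were chosen. The measurement is a list of 28695 broad peaks of histone H3 lactylated at lysine 18 (H3K18la) in H1299 cells, an established human non-small cell lung cancer line. For each gene the peaks within 1000 bp of either end, the peaks elsewhere in the gene and the other peaks within 50000 bp were read out.

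Lactylation is attached to histone lysines from a lactate-derived donor, and on H3 it is found mainly at active promoters and enhancers. PD-L1 (CD274) and PD-L2 (PDCD1LG2) bind the T-cell receptor PD-1 and dampen T-cell signalling. Interferon gamma, acting through JAK and STAT proteins and IRF1, is the classic inducer of PD-L1 in tumour cells. B7-H3 (CD276), B7-H4 (VTCN1), VISTA (VSIR) and HHLA2 are further relatives of the B7 family. The poliovirus receptor (PVR) and NECTIN2 are adhesion molecules that are bound by the inhibitory receptor TIGIT and the activating receptor CD226. CD47 binds SIRPA on macrophages and blocks phagocytosis, and galectin-9 (LGALS9) is a lectin that binds TIM-3 (HAVCR2).

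The series holds 1 library immunoprecipitated with anti-H3K18la and 1 input library, both from H1299 cells for which the labels name no treatment. The peak list of the first was analysed, and its control is called IgG in the series' design but input in the sample labels. With 1 library there is no replicate error, no p-value across samples can be given, and differences between genes are described for this library alone. Sequencing depth is unknown, so a gene without a peak is said to have no listed peak. No expression values were used here, so neither the identity of the line nor the activity of any gene was checked.

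A peak lay at an end of 7 of the 10 ligand genes, namely PVR, CD276, PDCD1LG2, NECTIN2, VSIR, CD47 and CD274, and at no end of VTCN1, LGALS9 and HHLA2. Of all protein-coding genes 59.1% had a peak at an end, so the share among the ligands was near the background. The values of the 7 genes fell into 3 levels. PVR (8.77-fold over the caller's local background), CD276 (8.51-fold), PDCD1LG2 (8.06-fold) and NECTIN2 (7.99-fold) formed the upper one. VSIR (5.54-fold) and CD47 (5.43-fold) lay near the middle of all genes with an end peak, and CD274 (2.92-fold) lay close to the bottom. The median over the 7 genes was 7.99-fold, beside 5.66-fold (quartiles 4.42 and 7.19) over the 11744 protein-coding genes with an end peak. Of these genes, 88.3% had a lower value than PVR, 47.9% a lower value than VSIR and 1.62% a lower value than CD274. No spread exists to say whether neighbours in this order differ.

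**Figure D1:**
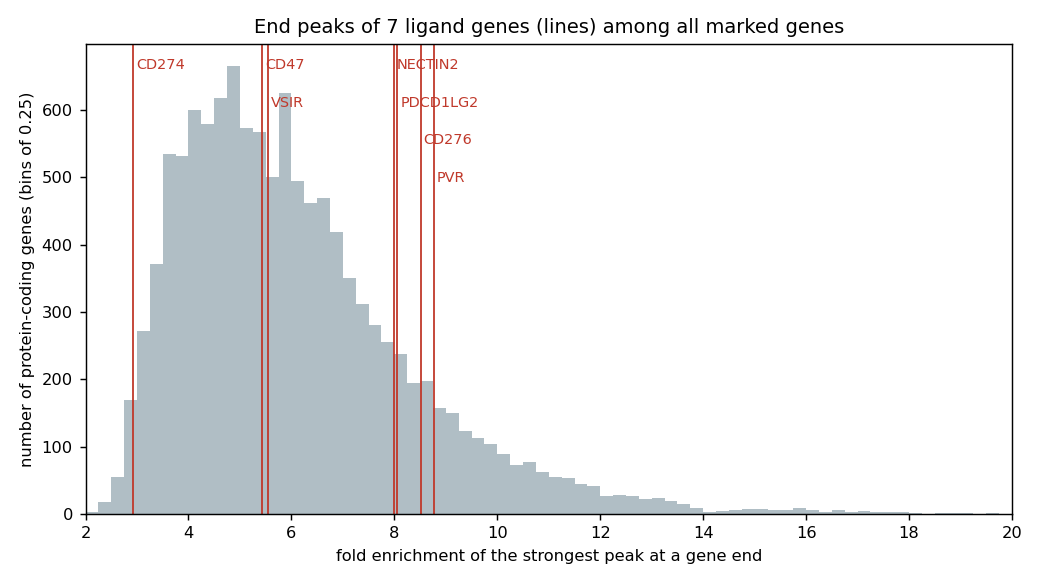
Number of protein-coding genes (vertical axis, bins of 0.25) by the fold enrichment of their strongest end peak (horizontal axis, which stops at 20 and leaves out 4 genes), with red lines for the 7 ligand genes that have an end peak. The upper group of lines runs from 7.99 for NECTIN2 to 8.77 for PVR, and CD274 stands at the left edge with 2.92.

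Within 50000 bp of the 10 genes lay 32 distinct peaks. At gene ends there were 8 of them, since NECTIN2 had separate peaks at both ends, as did 4.63% of all protein-coding genes. Inside the genes there were 6, in CD274, PDCD1LG2, CD276, VSIR (2 peaks) and NECTIN2, so that 5 of 10 genes had a peak inside, beside 24.8% of all genes. This count rests on weak peaks: it fell to 2 of 10 (16.5% of all genes) at a -log10 q of at least 5 and to 1 of 10 (13.2%) at a fold of at least the median of all peaks. The other 18 peaks lay in the flanks, and 8 of them were at the end of a coding gene outside the group. Peaks in the flanks were found for 7 of 10 genes, against 70.3% of all genes. LGALS9 and HHLA2 had no listed peak anywhere in this region, which was the case for 16.9% of all genes.

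**Figure D2:**
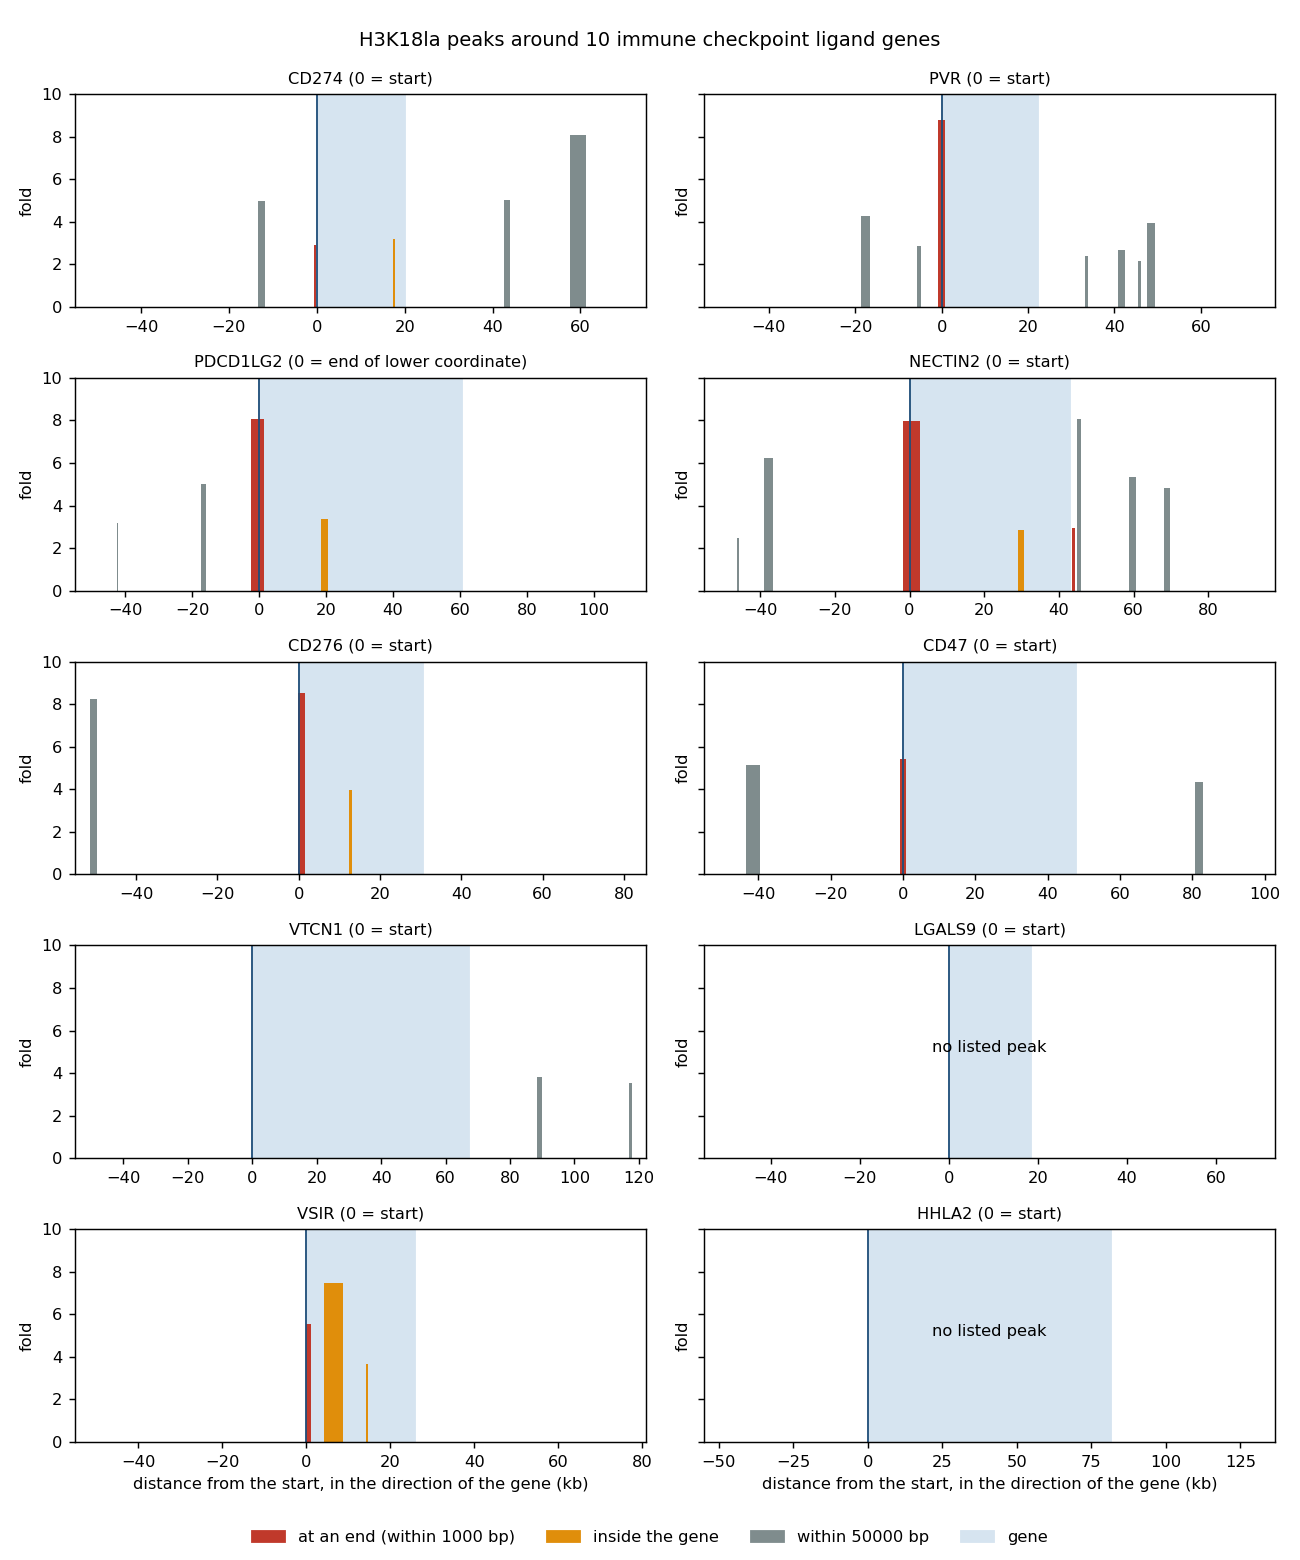
Fold enrichment of each peak (vertical axis) by its distance in kb from the gene's start, in the direction of the gene (horizontal axis; for PDCD1LG2 from its end of lower coordinate), with the gene shaded and bars as wide as the peaks but at least 0.5 kb. End peaks (red) reach 8.77 at PVR, the tallest inside peak (orange) is 7.45 in VSIR, and the panels of LGALS9 and HHLA2 are empty.

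The promoters of the group split by their content of CpG, the dinucleotide that is dense in the promoters of broadly expressed genes. The RefSeq promoter table (GRCh38.p14, 250 bases before to 50 after each start) held 12 entries for 9 of the 10 genes, and none for PDCD1LG2. A peak overlapped 6 of the 12 entries, beside 52.8% of the 22175 entries of all protein-coding genes. Of 7 entries with at least 10 CpG, 6 were overlapped by a peak, and of 5 entries with fewer than 10 CpG none was. Over all promoters of protein-coding genes these shares were 70.6% of 15535 and 11.2% of 6640, and the ligand entries were divided in the same direction. CD276, with both entries under the same peak, and HHLA2, with none under a peak, each count more than once among the ligand entries. The exception among the CpG-rich entries was CD274. The 250 bases before 4 of the starts are printed here 5′ to 3′ on the strand of the gene, with every CpG in capitals. They show the promoter with the most CpG of the group (CD47, under a peak), that of CD274 (beside a peak) and those of VTCN1 and LGALS9 (far from any peak).
CD47 (chr3:108091032-108091281, minus strand): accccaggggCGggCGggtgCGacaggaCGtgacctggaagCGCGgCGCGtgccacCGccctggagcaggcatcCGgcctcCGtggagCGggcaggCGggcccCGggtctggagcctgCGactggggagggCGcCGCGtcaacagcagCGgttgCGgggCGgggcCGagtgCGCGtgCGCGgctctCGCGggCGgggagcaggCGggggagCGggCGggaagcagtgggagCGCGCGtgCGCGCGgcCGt
CD274 (chr9:5450292-5450541, plus strand): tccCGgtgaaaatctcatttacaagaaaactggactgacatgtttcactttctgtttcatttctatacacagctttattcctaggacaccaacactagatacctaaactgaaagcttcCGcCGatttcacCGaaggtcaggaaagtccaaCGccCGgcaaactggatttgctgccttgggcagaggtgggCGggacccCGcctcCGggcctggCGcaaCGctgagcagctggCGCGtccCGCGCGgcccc
VTCN1 (chr1:117210928-117211177, minus strand): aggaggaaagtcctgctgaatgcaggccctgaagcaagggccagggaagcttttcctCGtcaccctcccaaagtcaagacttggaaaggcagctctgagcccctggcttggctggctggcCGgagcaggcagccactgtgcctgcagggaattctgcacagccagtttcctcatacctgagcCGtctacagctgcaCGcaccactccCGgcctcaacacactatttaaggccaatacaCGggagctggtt
LGALS9 (chr17:27630938-27631187, plus strand): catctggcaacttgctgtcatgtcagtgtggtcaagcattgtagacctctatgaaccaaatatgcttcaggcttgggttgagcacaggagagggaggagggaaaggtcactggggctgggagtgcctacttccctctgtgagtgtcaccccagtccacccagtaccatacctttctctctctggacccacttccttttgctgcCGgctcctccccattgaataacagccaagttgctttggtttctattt

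In the full 300 bases, CD47 had 45 CpG and 79.0% G or C, more CpG than 95.5% of promoters. CD276 had 37 and 28 CpG at its 2 listed starts, VSIR 35, PVR 27 and NECTIN2 26. CD274 had 22 CpG (57.3% G or C), close to the median of all promoters (21). In CD274 the capitals lie mostly in the part nearest the start. VTCN1 had 7 CpG, LGALS9 had 2, and the 3 listed starts of HHLA2 had 2, 4 and 0. Among all promoters with 20 to 24 CpG, the class of CD274, 70.5% were overlapped by a peak, and among those with 0 to 4 CpG, the class of LGALS9 and HHLA2, 6.41% were.

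**Figure D3:**
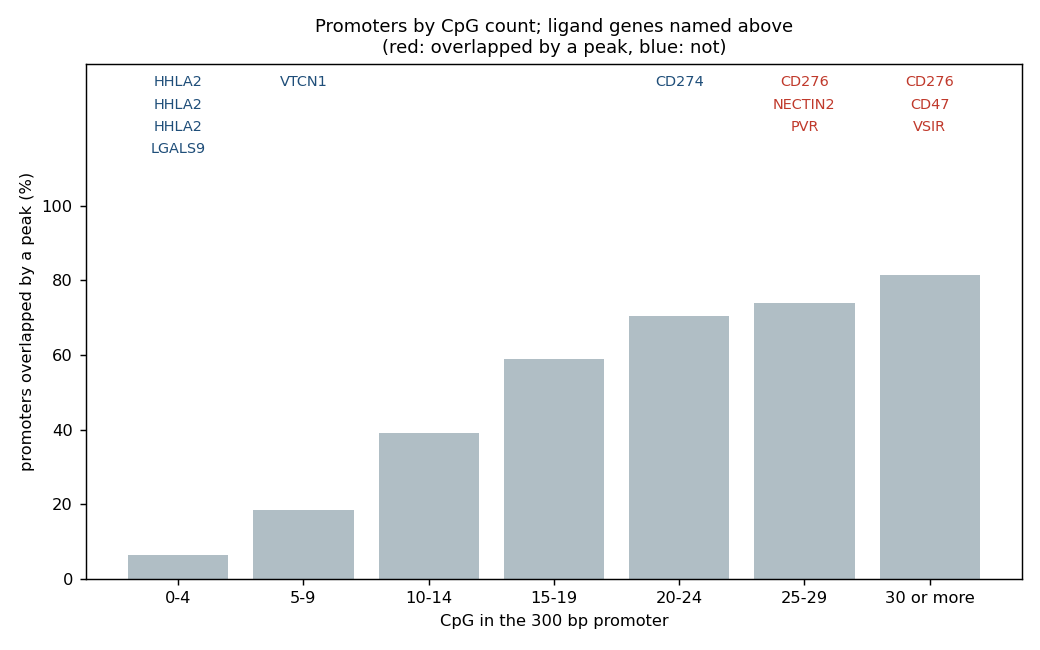
Share of protein-coding promoters overlapped by a peak (vertical axis, percent) by the number of CpG in the 300 bp promoter (horizontal axis), with the promoters of the ligand genes named above their class, in red where overlapped and in blue where not. The bars rise from 6.41% to 81.5%, and CD274 is the blue name above a bar of 70.5%.

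CD274 (NCBI gene 29126, chromosome 9, 5450542 to 5470554, plus strand) had a weak and short start peak that lay wholly before the start. The peak ran from 5449848 to 5450285, a width of 438 bp with 2.92-fold and a -log10 q of 2.27. Its last base lay 257 bp before the start, just outside the 300 bases of the promoter entry. Of the 9 ligand genes with a known strand 6 had a peak within 1000 bp of the start, beside 59.5% of all such genes, and in the 5 others than CD274 it covered the start base. Over all genes with a start peak, 81.1% had it over the start base and 4.07% had it wholly before. In width, 6.01% of all end peaks were narrower than that of CD274. A second weak peak of 317 bp (3.18-fold, -log10 q 2.01) lay inside CD274, 17472 bp after the start.

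The 300 bases of CD274 also held matches to letters read by interferon-activated factors. The interferon-stimulated response element (a 10-letter consensus, both strands) matched at 2 overlapping places beginning 208 and 202 bases before the start, and those of the STAT element GAS (TTCNNNGAA) matched 125 bases before it. The first was present in 3.17% and the second in 6.80% of all 22175 promoters. Among the other ligand entries, LGALS9 and 1 start of HHLA2 had a match to the former, and none had a match to the latter. The SP1 letters (GGGCGG) were in 6 of the 12 entries and in 56.3% of all promoters. The core hypoxia letters (ACGTG) were in entries of CD47 and CD276 (23.0% of all promoters), and the AP-1 letters (TGANTCA) in entries of VTCN1 and HHLA2 (6.14%). The loose NF-kB consensus, which overlaps the SP1 letters in CD274, was in 9 of 12 entries and in 66.6% of all promoters. The E-box CACGTG and the TATA letters TATAAA were in none of the 12 entries and in 8.34% and 9.47% of all promoters. All matches are descriptions of letters in this window.

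PDCD1LG2 (NCBI gene 80380, chromosome 9, 5510531 to 5571282) carried the strongest peak of the PD-1 ligand locus. It covered the gene's end of lower coordinate from 5508244 to 5511856, was 3613 bp wide and had 8.06-fold with a -log10 q of 25.7. Of all end peaks, 94.8% were narrower and 84.6% had a lower fold. Another peak inside the gene (5529020 to 5530990, 3.39-fold) had a -log10 q of 2.51. The end of higher coordinate had none, and the next peak beyond it lay 56562 bp away.

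The stretch of chromosome 9 from 50000 bp below CD274 to 50000 bp above PDCD1LG2 held 6 peaks. The lowest in position was at the end of PLGRKT, a plasminogen receptor gene, 11880 bp before the CD274 start, with 4.99-fold. Wholly within the 39976 bp between CD274 and PDCD1LG2 lay 1 peak, of 1425 bp and 5.02-fold (5493097 to 5494521, -log10 q 7.89). It lay 22543 bp past the end of CD274, and 16010 bp before PDCD1LG2. Each of these 2 neighbours of CD274 had a higher fold than either peak of CD274 itself. The peak over the end of PDCD1LG2 also reached 2287 bp into the interval between CD274 and PDCD1LG2. The long noncoding gene INCR1, an interferon-stimulated transcript that runs on the minus strand from 5629727 down to 5457431, spans 4 of the 6 peaks, including those at PDCD1LG2. A peak in this span can therefore not be given to 1 of the genes by position. In the fixed list of interferon genes, JAK2, which lies on the same chromosome, had 6.47-fold at an end.

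**Figure D4:**
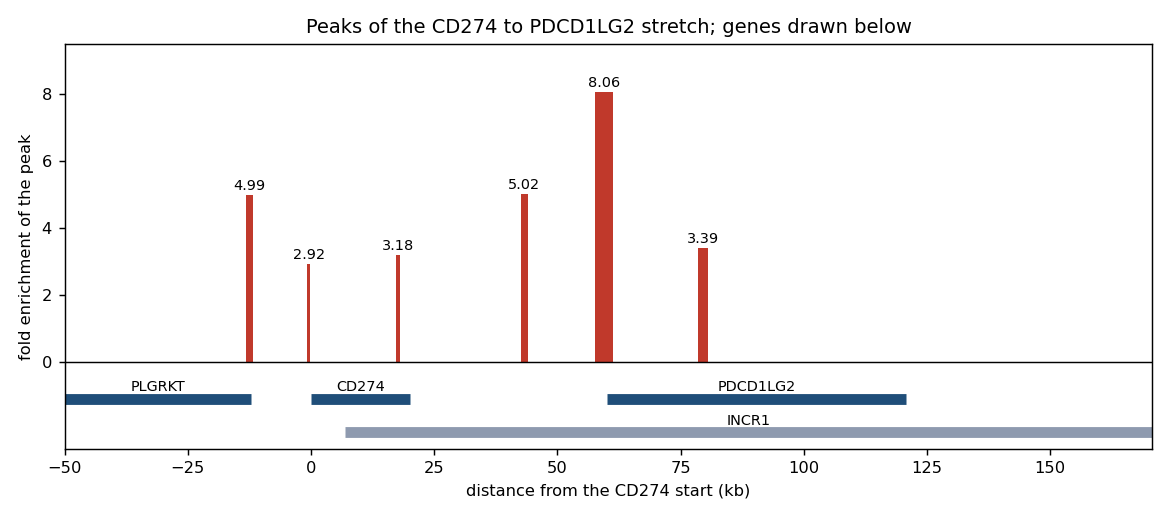
Fold enrichment of the 6 peaks (vertical axis, value above each bar, bars at least 0.7 kb wide) by distance in kb from the CD274 start (horizontal axis), with the coding genes in dark blue and the noncoding INCR1 in grey below. The bar at PDCD1LG2 (8.06) is the tallest, and that at the CD274 start (2.92) the lowest.

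Among the other B7 relatives in the group, CD276 (NCBI gene 80381, chromosome 15, 73683944 to 73714514) had a strong start peak and VSIR a weaker one. The CD276 peak ran from 73683659 to 73685482 with 8.51-fold and a -log10 q of 25.3. It reached 285 bp before the start of the gene record and 1538 bp past it. Both promoter entries, whose own starts lie further inside the gene, were overlapped by this peak. A peak of 628 bp and 3.99-fold lay 12492 bp into the gene. The flanks held 1 further peak, at the NPTN end 49712 bp before the start (8.25-fold), and beyond the gene's other end the nearest peak was 183087 bp away.

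VSIR (NCBI gene 64115, chromosome 10, 71747556 to 71773520, minus strand) had its strongest peak inside the gene. That peak was 4352 bp wide (71764856 to 71769207) with 7.45-fold and a -log10 q of 21.1, and began 4313 bp after the start. The start peak (71772431 to 71773591) had 5.54-fold over 1161 bp, of which 71 bp lay before the start. Of the 3419 genes with peaks both at an end and inside, 30.8% likewise had the stronger one inside. Another peak, of 486 bp and 3.66-fold, lay 14147 bp into the gene. VSIR lies wholly within the span of CDH23, a cadherin gene (71396920 to 71815947), so its 3 peaks are also peaks inside CDH23. No other peak lay within 50000 bp on either side.

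VTCN1 (NCBI gene 79679, chromosome 1, 117143587 to 117210927, minus strand) and HHLA2 (NCBI gene 11148, chromosome 3, 108296548 to 108378285, plus strand) had none at their ends or inside. The flanks of VTCN1 held 2 weak peaks, both past its 3′ end. One lay 20983 bp away inside TRIM45 (3.80-fold) and another 49510 bp away inside TTF2 (3.52-fold). On the side of the VTCN1 start the nearest peak was 155392 bp away. HHLA2 lay in an interval of 336308 bp without a peak, with the nearest 92387 bp past its 3′ end (5.53-fold). An interval at least as long surrounded 14.9% of all protein-coding genes.

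Both nectin-type ligands, which lie on chromosome 19 with 180134 bp between them, had strong start peaks. PVR (NCBI gene 5817, 44643910 to 44666162) had 8.77-fold over 1488 bp (44643158 to 44644645), placed almost evenly with 752 bp before the start and 736 bp from it on. NECTIN2 (NCBI gene 5819, 44846297 to 44889223) had 7.99-fold over 4589 bp (44844488 to 44849076), and 97.2% of all end peaks were narrower. The peak at the 3′ end of NECTIN2 (2.93-fold, 581 bp) lay outside the gene and also at the end of TOMM40, a mitochondrial import gene. A peak inside NECTIN2, 29120 bp after the start, had 2.87-fold. PVR had none inside.

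The start peaks of these 2 genes differed from the end peaks of CD276 and PDCD1LG2 far more in significance than in fold. At PVR the -log10 q was 60.5 and at NECTIN2 62.5, whereas CD276 and PDCD1LG2, with 8.51-fold and 8.06-fold, had 25.3 and 25.7. The control background solved from fold and p under the caller's Poisson model, in its scaled read units, was 11.0 at PVR and 13.6 at NECTIN2, against 3.94 at CD276 and 4.59 at PDCD1LG2. Over the peaks within 1 Mb its median was 10.7 around PVR and likewise around NECTIN2, beside 3.83 (quartiles 2.91 and 5.06) over all peaks. The windows around these 2 genes overlap over most of their length, so their medians are not separate observations. Because the background is solved from each peak's own fold and p, a higher significance at near-equal fold gives a higher background by construction. The solved values are therefore no separate measure beside the significance. The part of the background in the number of peaks there was not tested. The neighbourhoods were also dense in peaks, with 7 within 50000 bp of PVR and 8 of NECTIN2, where the median over all genes was 3. Of the 6 flank peaks of PVR, 4.25-fold was the highest value and 2.16-fold the lowest. Those of NECTIN2 included peaks at the ends of BCAM (6.25-fold), TOMM40 (8.05-fold), APOE (5.36-fold), APOC1 (4.80-fold) and CBLC (2.47-fold).

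**Figure D5:**
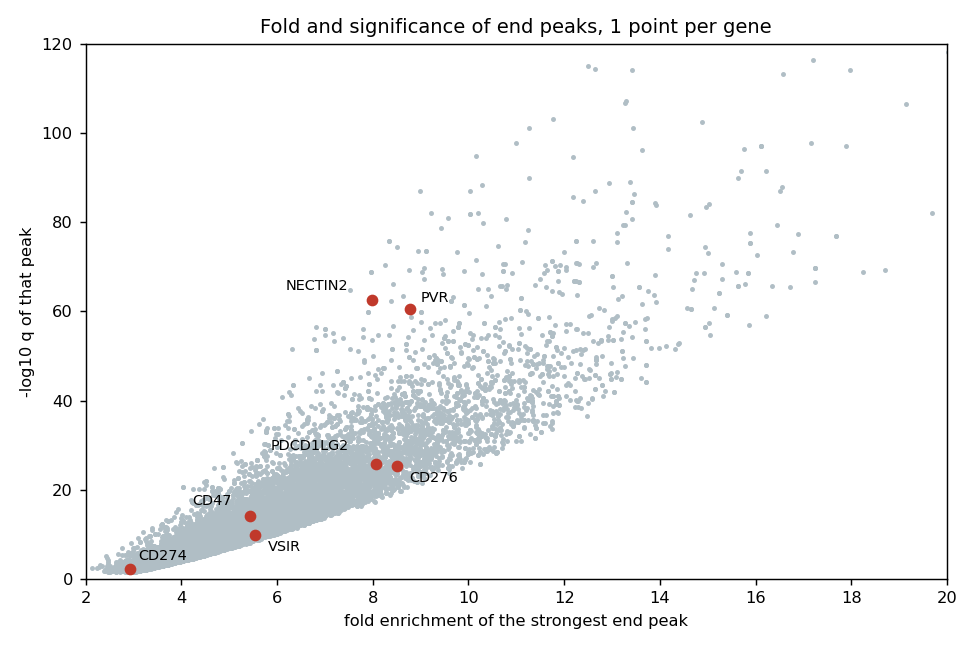
The -log10 q (vertical axis, to 120) against the fold enrichment (horizontal axis, to 20) of the strongest end peak of each protein-coding gene (grey points, 11 outside the axes), with the 7 ligand genes in red. PVR and NECTIN2 lie above 60 at a fold near that of CD276 and PDCD1LG2, which lie near 25, and CD274 lies in the lower left corner.

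CD47 (NCBI gene 961, chromosome 3, 108043091 to 108091031, minus strand), the ligand that restrains macrophages, had a start peak of 1602 bp (108090190 to 108091791) with 5.43-fold and a -log10 q of 14.03. It lay evenly around the start, 760 bp before it and 842 bp from it on. None lay inside the gene. A peak of 3722 bp (108130642 to 108134363, 5.14-fold, -log10 q 8.05) lay 39611 bp before the start, inside the long noncoding gene LINC01215. Of all peaks 94.4% were narrower than this one. Another of 4.36-fold lay 32793 bp past the 3′ end of CD47.

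LGALS9 (NCBI gene 3965, chromosome 17, 27631188 to 27649560) had the nearest peak 78450 bp before its start (3.45-fold) and the next one 243368 bp past its end. It lay in an interval of 340189 bp without a peak, and 14.8% of all genes lay in one at least as long. LGALS9 has close copies, LGALS9B and LGALS9C, which also had no listed peak within 50000 bp, and the placing of reads among such copies was not examined.

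Of 12 checkpoint and costimulatory receptor genes of lymphocytes and macrophages, which include receptors of ligands outside the group such as CTLA4 and CD28, 2 had a peak at an end, beside 59.1% of all protein-coding genes. These were SIRPA, the macrophage receptor of CD47 (3.62-fold), and the T-cell costimulator TNFRSF9 (4.20-fold). No end peak was listed at PDCD1, CTLA4, CD28, TIGIT, CD226, CD96, PVRIG, HAVCR2, TMIGD2 and KIR3DL3, although CD96 held 3 peaks inside, of up to 3.91-fold. The median over the 2 receptors with an end peak was 3.91-fold, beside 5.66-fold for all genes with one.

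Relatives of the ligands outside the group were likewise set against the 59.1% of all genes with an end peak. Of 10 other B7 and butyrophilin genes 6 had one, a share (60.0%) near that background, with a median of 4.36-fold, led by BTN2A1 (5.57-fold), BTN2A2 (4.66-fold) and BTN3A3 (4.40-fold). Each of the 6 lay below the median of all genes with an end peak. The BTN2 and BTN3 genes among them share a stretch of chromosome 6 (26365169 to 26476622), so they are not separate loci. No end peak was at CD80, CD86, the B7 ligands of professional antigen-presenting cells, ICOSLG or BTNL9, and BTNL9 had 8.56-fold inside. Of 7 other nectins and nectin-like genes 2 (28.6%) had one, NECTIN3 with 7.49-fold and NECTIN1 with 3.69-fold. The NECTIN1 peak was short (354 bp) and had a -log10 q of 3.29, beside 18.59 at NECTIN3. NECTIN4, CADM1, CADM2, CADM3 and CADM4 had none at an end, while NECTIN4 and CADM4 had peaks inside of up to 5.67-fold and 5.55-fold. Of 13 other galectin genes 2 (15.4%) had one, LGALS1 with 7.73-fold and LGALS3 with 5.63-fold. The galectins without one were LGALS2, LGALS4, LGALS7, LGALS7B, LGALS8, LGALS9B, LGALS9C, LGALS12, LGALS13, LGALS14 and LGALS16.

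The genes that regulate the ligands were marked throughout. All 18 genes of interferon gamma signalling and of the transcriptional control of PD-L1 had an end peak, with a median of 7.42-fold. Among them were the NF-kB subunit gene NFKB1 (11.6-fold) and the hypoxia factor gene HIF1A (11.4-fold). IRF1, the interferon-induced activator of CD274, had 10.9-fold and the receptor chain gene IFNGR2 had 10.6-fold. All 18 genes of the maturation and turnover of the ligand proteins had one too, with a median of 6.11-fold. They were led by CUL3 (19.7-fold) and the deubiquitinase gene USP22 (10.3-fold), followed by the kinase gene GSK3B (9.70-fold). CMTM6, which keeps PD-L1 at the cell surface, had 5.89-fold, and QPCTL, whose enzyme modifies CD47 for SIRPA binding, had 4.80-fold in a peak also at SNRPD2. The background of 59.1% holds for these lists as well, and they were composed by hand from known regulators, most of which many cell types use. Earlier results of these data were known when the lists were composed.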

How the data were processed

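The deposited file is a MACS2 broad peak list without a header, placed with the anti-H3K18la library by its label, since the prefix NC of its peak names is unexplained. Per the submitters' processing notes, the build was hg38 and the tools included Bowtie2 (2.3.4.1) and MACS2 (2.1.2 and 2.1.0); the caller's settings and control are not given in the sources used here. Its deposited values are, per peak, a fold enrichment (a ratio to the local background), -log10 p and -log10 q, and a score, which in 99.98% of peaks is 10 times the -log10 q without its decimals. All are averages over a peak, so a wide peak can hide a stronger centre.

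Peaks were joined to RefSeq genes by 1 bp of overlap in Python 3.11.15 (pandas 2.3.3, scipy 1.17.1). Of 59679 placed gene entries, 718 on alternate or unlocalised sequences were left out. Strand came from the RefSeq promoter table (15842 of 19866 coding genes), and exons were not used. The background was solved from fold and -log10 p, which is approximate because both are averages over the peak. The overlap was tested with planted peaks and against a direct count on the real peaks. The solver was tested only on values made with the formula that it inverts, without averaging over a peak. The error from that averaging was therefore not tested.

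Every ligand gene was named. From each pathway list the 3 highest folds and the genes without an end peak were named, except for items not reported here, and JAK2, IRF1, IFNGR2, CMTM6, QPCTL, the copies LGALS9B and LGALS9C, and INCR1, CDH23, LINC01215, TRIM45 and TTF2, which hold peaks, were added after their values were seen. The members and lists were chosen with earlier results of these data known. Windows, thresholds, overlap rules and flanks were varied.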

Additional observations from a re-analysis of the deposited data

How the results depend on the processing

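The 7 of 10 ligand genes with an end peak were the same genes with windows of 500 and 2000 bp and when the peak's midpoint had to lie in the window. CD274 was lost, leaving 6, at a -log10 q of at least 5, at a fold of at least the median of all peaks (4.36), and when 50% of the window had to be covered. Over these 6 settings the share of all protein-coding genes with an end peak ran from 40.2% to 60.9%. With the start end alone, 6 of the 9 genes with a known strand counted, beside 59.5% of all genes with one. The number of ligand genes with a peak inside fell from 5 to 2 at a -log10 q of at least 5 and to 1 at a fold of at least the median, since 4 of the 6 inside peaks had a -log10 q under 5 and 5 had a fold under the median. The number with a flank peak fell from 7 to 4 with a flank of 20000 bp and rose to 10 with one of 100000 bp. A wider flank can only keep or add such genes, by construction. The share of all protein-coding genes is given only for the flank of 50000 bp (70.3%), so the counts at the other flanks have no background beside them. Of the 78 pathway genes, 48 had an end peak, and 38 to 49 under the same 6 settings. With a window of 2000 bp the end value of NECTIN2 became 8.05-fold, from the peak at TOMM40. No paired analysis was possible because each group has 1 library and 1 peak list was analysed. A single list of unknown depth gives no error for any value.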

Other observations

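The 3 pairs of neighbouring ligand genes lay in stretches of very different peak density. From 50000 bp below the lower gene to 50000 bp above the higher one, the PVR to NECTIN2 stretch held 21 peaks (6.08 per 100 kb), CD274 to PDCD1LG2 held 6 (2.72) and CD47 to HHLA2 held 3 (0.689). Peaks covered 11.7%, 4.16% and 1.73% of these stretches. For single protein-coding genes with their flanks, the median was 1.81 peaks per 100 kb (quartiles 0.732 and 3.49). The median share covered was 2.26% (quartiles 0.678 and 5.07). Beside these, the chromosome 9 stretch lay within the quartiles on both measures. The chromosome 3 stretch lay just under the lower quartile in density and within the quartiles in coverage. Wholly between PVR and NECTIN2 lay 12 peaks, and the start peak of NECTIN2 reached into the interval as well. The widest of the 12 (9315 bp, 7.99-fold, chromosome 19, 44740466 to 44749780) was at BCL3, which encodes an atypical inhibitor of the NF-kB family. A further peak inside BCL3 had 7.95-fold. A peak of 2367 bp and 7.66-fold in CEACAM16-AS1 was at no coding gene's end. The median background solved from the peaks was 10.7 in this stretch, 3.27 in the chromosome 9 stretch and 2.90 in the chromosome 3 stretch, and its part in the different densities was not tested. BCL3 and CEACAM16-AS1 were named after their values were seen.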
